A study of Mus musculus with 8 samples.

Results

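The immunoglobulin light chain loci hold the gene segments from which B cells assemble the smaller chain of the antibody. The loci were examined through 4 constant genes, Igkc on chromosome 6 and Iglc1, Iglc2 and Iglc3 on chromosome 16, together with their variable (V) and joining (J) segments. Chromatin contacts had been measured in 8 in situ Hi-C libraries and deposited as counts for pairs of 50 kb bins, rebuilt here on GRCm38. The kappa locus was taken as 66 bins, chr6:67500061-70799850, and the lambda locus as the 5 bins of chromosome 16 that overlap its immunoglobulin genes in GENCODE M21. These 71 bins, given by a rule that uses position and no measured value, were described with 1 Mb of flank on each side, and belong to 48088 autosomal bins in all.

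The libraries used here span B cell activation by lipopolysaccharide up to just before the earliest division. Splenic naive B cells of young adult male C57BL/6 (Pep3b background) mice were purified by negative selection, labelled with CellTrace Violet and cultured with 25 µg/ml lipopolysaccharide. Undivided activated B cells were sorted by surface markers, CD69 among them, and by highest dye content at 3 h, 10 h and 33 h, the 33 h cells being called imminent division. The pre-S group was sorted at 33 h as mAG- mKO2hi cells, in G1 phase, from FUCCI reporter mice, so the mouse strain and the sort gate cannot be told apart from that group. Each of the 4 groups had 2 libraries, with 88703088 to 218945191 read pairs and 70.9% to 75.1% of the autosomal pairs within a chromosome. The study's methods call the 2 libraries of a group biological duplicates without saying whether they came from separate animals, and p-values measure the spread between these libraries. The second imminent division library had a higher X and a lower Y chromosome share than the others, and only autosomes were used. All 8 B cell marker genes lay in the open A compartment in each group, as did all 6 T cell and all 4 myeloid genes, so compartments did not tell these cell types apart.

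A light chain gene is made in bone marrow precursors, where the RAG1 and RAG2 recombinase cuts next to a V and a J segment at recombination signals and repair factors join the ends. The kappa V segments lie far upstream of the J segments and Igkc, and contraction and looping of the locus are known to bring them near. V segments in the same orientation as Igkc usually join by deletion of the DNA between, and those in the opposite orientation by inversion. Mature B cells have finished this process and most mouse B cells use kappa, so the alleles in these cells are a mixture of rearranged and germline forms, whereas contacts are drawn on the germline reference. Downstream of Igkc lie strong enhancers of kappa transcription, and the antibody-secreting state that follows activation raises light chain transcription.

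The kappa locus held 102 V genes, 38 on the plus strand and 64 on the minus strand, with 74 V pseudogenes and 5 J segments. Its 63 V bins were divided into equal parts of 21 bins by distance from Igkc. The distal part, chr6:67550321-68600017, had 23 plus and 3 minus strand V genes. The middle part, chr6:68600014-69649838, had 2 plus and 31 minus, and the proximal part, chr6:69649835-70699965, had 12 plus and 30 minus. Igkc is on the plus strand, so the distal V genes mostly share its orientation and the middle V genes mostly oppose it. The Igkc bin, chr6:70699962-70750102, also holds Igkv3-1 and all 5 kappa J segments, and its coding exon is chr6:70726435-70726754. The lambda locus is small, with 3 V genes, 5 J segments and 4 constant genes, all within 5 bins. The coding exons of Iglc1 (chr16:19061755-19062071) and Iglc3 (chr16:19065368-19065681) share a bin, and that of Iglc2 (chr16:19198539-19198853) lies 2 bins further upstream, all on the minus strand. The Iglc2 and Iglc3 exons were 96.2% identical, against 74.9% for Iglc1 and Iglc3 and 55.3% to 56.6% for Igkc and these 3, so read pairs from Iglc2 and Iglc3 are the most open to being exchanged.

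The recombination signals below lie beside V and J segments, and are read from the reference sequence 5′ to 3′ on the strand of the gene. Capitals mark the heptamer and the nonamer as placed against CACAGTG and ACAAAAACC, or against their reverse complements before a J segment. The kappa J segments, which lie in the Igkc bin, follow their signals.
Igkj1, chr6:70722523-70722599, plus strand: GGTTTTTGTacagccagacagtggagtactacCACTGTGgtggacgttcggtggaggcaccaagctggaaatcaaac
Igkj3, chr6:70723185-70723260, plus strand: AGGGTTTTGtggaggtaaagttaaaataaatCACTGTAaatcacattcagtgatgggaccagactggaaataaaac
Igkj5, chr6:70723847-70723927, plus strand: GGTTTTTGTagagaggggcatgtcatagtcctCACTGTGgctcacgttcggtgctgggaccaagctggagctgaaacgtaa
Iglj1, chr16:19063225-19063290, minus strand: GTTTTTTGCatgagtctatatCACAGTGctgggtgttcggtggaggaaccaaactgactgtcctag
Iglj2, chr16:19200198-19200263, minus strand: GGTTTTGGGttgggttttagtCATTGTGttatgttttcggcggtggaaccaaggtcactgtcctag
The signals of Igkj1, Igkj4 and Igkj5 matched both consensus blocks with 0 mismatches. That of Igkj3 as marked had 1 in the heptamer and 5 in the nonamer. For Igkj3 the stretch starting 1 base further on is nearer to the nonamer consensus, with a shorter spacer. As marked, kappa J signals had spacers of 22 to 24 bases and lambda J signals had spacers of 12. The V signals read here had the opposite lengths, 12 for the 12 kappa and 23 for the 3 lambda V genes. Recombination requires such an unlike pairing. The V signals shown next belong to the V bins with the highest (Igkv2-112, Igkv4-92) and the lowest (Igkv3-7, Igkv3-5) contact with the Igkc bin, described further on, and to the lambda V segment beside Iglc1 and Iglc3.
Igkv2-112, chr6:68220687-68220734, plus strand: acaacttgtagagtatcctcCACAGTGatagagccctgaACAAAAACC
Igkv4-92, chr6:68755010-68755057, minus strand: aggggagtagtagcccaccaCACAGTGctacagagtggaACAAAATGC
Igkv3-7, chr6:70608017-70608064, plus strand: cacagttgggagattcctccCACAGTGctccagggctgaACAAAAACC
Igkv3-5, chr6:70663876-70663923, plus strand: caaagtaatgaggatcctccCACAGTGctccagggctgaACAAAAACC
Iglv1, chr16:19084978-19085036, minus strand: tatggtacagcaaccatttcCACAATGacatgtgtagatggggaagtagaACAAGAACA
Of the 5 V genes with a signal in the 3 highest contact bins, 1 (Igkv2-112) matched both blocks with 0 mismatches and 4 had at least 1 mismatch, while all 7 in the 3 lowest contact bins, of the Igkv3 family, had 0. These few genes were chosen by contact, and the difference was not tested.

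The Igkc bin was in contact above the average for the distance with all 21 distal, all 21 middle and 17 of 21 proximal V bins, the distal ones having the highest mean. Contact is given as observed over expected, the count of a bin pair divided by the mean count of all autosomal bin pairs at the same distance in that library, averaged over the pairs. Bin coverage was not divided out. The Igkc bin had 1.61 times as many read pairs with other autosomes as the median autosomal bin, averaged over libraries. With the distal V bins contact was 6.64 and 6.66 in the 3 h libraries, 6.94 and 7.39 at 10 h, against 5.83 and 6.30 at imminent division, and 6.19 and 5.94 in pre-S. All 4 libraries of the 33 h groups lay below all 4 of the 3 h and 10 h groups. With the middle V bins it was 6.54 and 5.99 at 3 h, 6.04 and 5.44 at 10 h, then 4.2 and 4.86 at imminent division, and 4.59 and 4.45 in pre-S. With the proximal V bins it was 2.65 and 2.93 at 3 h, 2.51 and 2.56 at 10 h, against 2.01 and 2.29 at imminent division, and 2.15 and 2.12 in pre-S. In each part of the V segments the 33 h libraries again lay below the earlier ones without overlap.

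The means at 10 h were 7.17 ± 0.31 (SD, n = 2) for distal, 5.74 ± 0.43 for middle and 2.53 ± 0.033 for proximal V bins, and at imminent division 6.06 ± 0.33, 4.53 ± 0.47 and 2.15 ± 0.20. As ratios of geometric means, imminent division was at 0.846, 0.789 and 0.846 times 10 h. Leaving out a library in turn, the log2 ratio ran from -0.30 to -0.19 for distal, -0.45 to -0.24 for middle and -0.33 to -0.15 for proximal V bins. Exact permutation tests of a difference among the 4 groups, over all 105 ways to arrange the 8 libraries in pairs, gave p = 0.0286, 0.0571 and 0.0286, which became 0.0607, 0.0883 and 0.0607 after Benjamini-Hochberg adjustment over the 17 measures taken at these loci. The contacts of Igkc with the V parts thus did not pass a threshold of 5%, and the smallest p this design allows is 0.00952. In bulk Hi-C, fewer cells holding a contact and a weaker contact in each cell cannot be told apart.

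Among all autosomal windows of the same shape, 0.0188% of 90184 had a higher mean contact than Igkc with its distal V bins. This was over all libraries pooled, where the median window was at 0.958. The share was 0.0900% for the middle and 2.20% for the proximal part. The change was nearer to that of other windows than the level was: between 10 h and imminent division 21.8%, 15.6% and 14.8% of windows had a larger decrease than the Igkc bin with the distal, middle and proximal parts. These windows overlap each other and include those around Igkc, so they are not separate places. They were drawn up after the values had been seen and are given as a description.

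**Figure D1:**
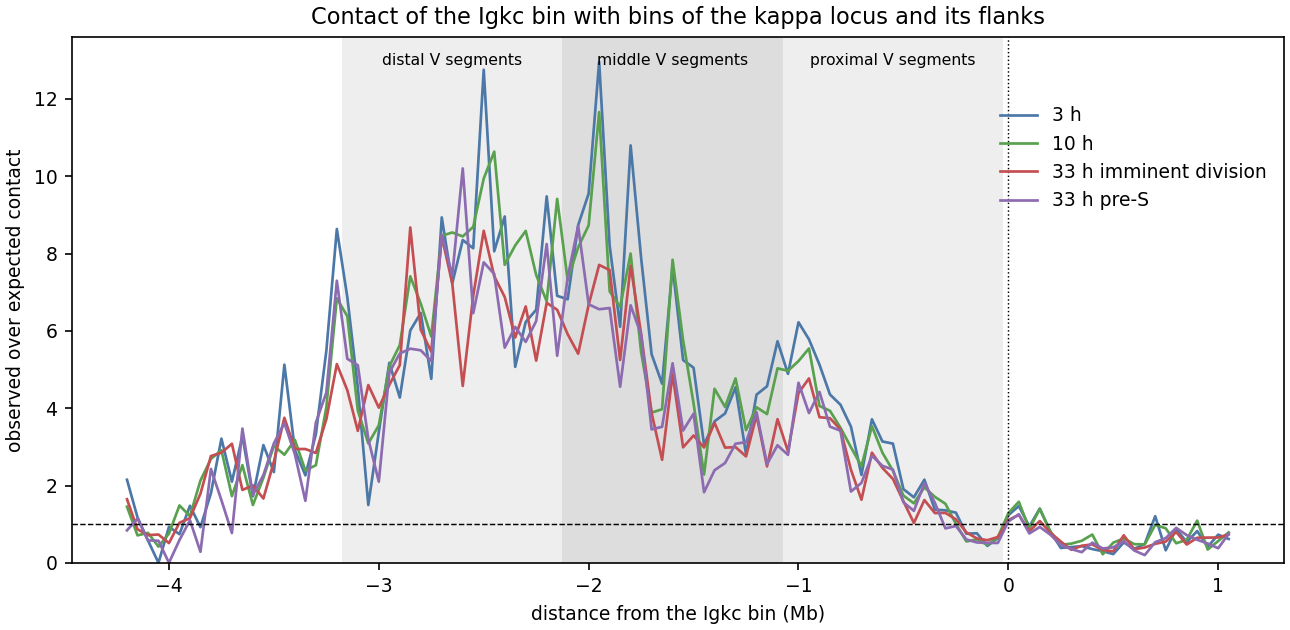
Mean observed over expected contact of the Igkc bin (vertical axis) with each 50 kb bin of the kappa locus and its flanks, by distance from the Igkc bin in Mb, one line for each group of 2 libraries. Shading marks the parts of the V segments and the dashed line a ratio of 1; contact is highest over the distal and middle V segments, where the V bin of Igkv2-112 averaged 9.76, and falls below 1 at the V bins next to Igkc, at 0.501 to 0.633, and over most of the 3′ flank, where the median bin was at 0.581.

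Contact differed widely between V bins. The highest was with the bin of Igkv2-112, a distal plus strand V gene, at a mean of 9.76 over the 8 libraries. It was 12.8 in both 3 h libraries, 10.1 and 9.74 at 10 h, then 7.91 and 9.27 at imminent division, and 8.52 and 7.03 in pre-S, from 19 to 51 read pairs. The bin of Igkv4-92 and Igkv4-91, minus strand V genes of the middle part, followed at 9.72, with 15.5 and 10.5 at 3 h, 10.1 and 13.2 at 10 h, against 6.36 and 9.05 at imminent division, and 8.0 and 5.12 in pre-S. In both bins every 33 h library lay below every earlier one. The bin of Igkv1-122 and Igkv17-121 came next at 8.58, and there the groups overlapped, with 6.41 to 10.5 before 33 h and 5.91 to 11 at 33 h.

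The 3 lowest V bins were the ones nearest to Igkc, and all hold Igkv3 family genes on its own strand. The bin of Igkv3-7 and Igkv3-6 averaged 0.501 and ranged from 0.401 to 0.628 across libraries. The bin of Igkv3-5, Igkv3-4, Igkv3-3 and Igkv3-2, which adjoins the Igkc bin, averaged 0.621 on 57 to 213 read pairs. The bin of Igkv3-11 to Igkv3-8 averaged 0.633. At these short distances on the germline reference the Igkc bin was thus in less contact than bins of that spacing are on average. With V bins further off it was in several times more contact. Rearranged alleles, in which the spacing differs, cannot be told apart from germline ones in these counts. The order of V bins was much alike in all groups. The 63 V bin values at 10 h had a Spearman rho of 0.932 with those at 3 h, 0.918 with imminent division and 0.925 with pre-S. Pearson r was 0.915, 0.916 and 0.895 in the same order. This is a description across bins that share libraries and 1 Igkc bin. It includes the shared rise from proximal (median 2.12) to distal V bins (median 6.79). With the interchromosomal coverage of the V bin, the sum of its read pairs with other autosomes, r was 0.155.

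The contact with V segments was shared by the bins around Igkc. Averaged over the distal and middle V bins, observed over expected contact was 3.99 for the last proximal V bin, 5.87 for the Igkc bin and 5.57 for the next bin downstream, which holds Rpia, an enzyme gene of the pentose phosphate pathway, and includes sequence beyond the 3′ end of the locus. The 3 bins that overlap Eif2ak3, a kinase gene of the unfolded protein response, had 3.00, 3.34 and 3.24, and Foxi3 had 2.39. The value was 1.11 in the bin of Fabp1 and Smyd1, the last shown here. The Igkc bin was above the Rpia bin in all 8 libraries but close to it, so at 50 kb contact of Igkc itself and of sequence downstream of it cannot be told apart. For the Igkc bin the libraries read 6.59 and 6.32 at 3 h, 6.49 and 6.41 at 10 h, then 5.02 and 5.58 at imminent division, and 5.39 and 5.19 in pre-S, and for the Rpia bin 6.37 and 5.86, 5.96 and 5.82, 4.89 and 5.48, and 5.32 and 4.87 in the same order. In both bins the 33 h libraries were below the earlier ones.

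**Figure D2:**
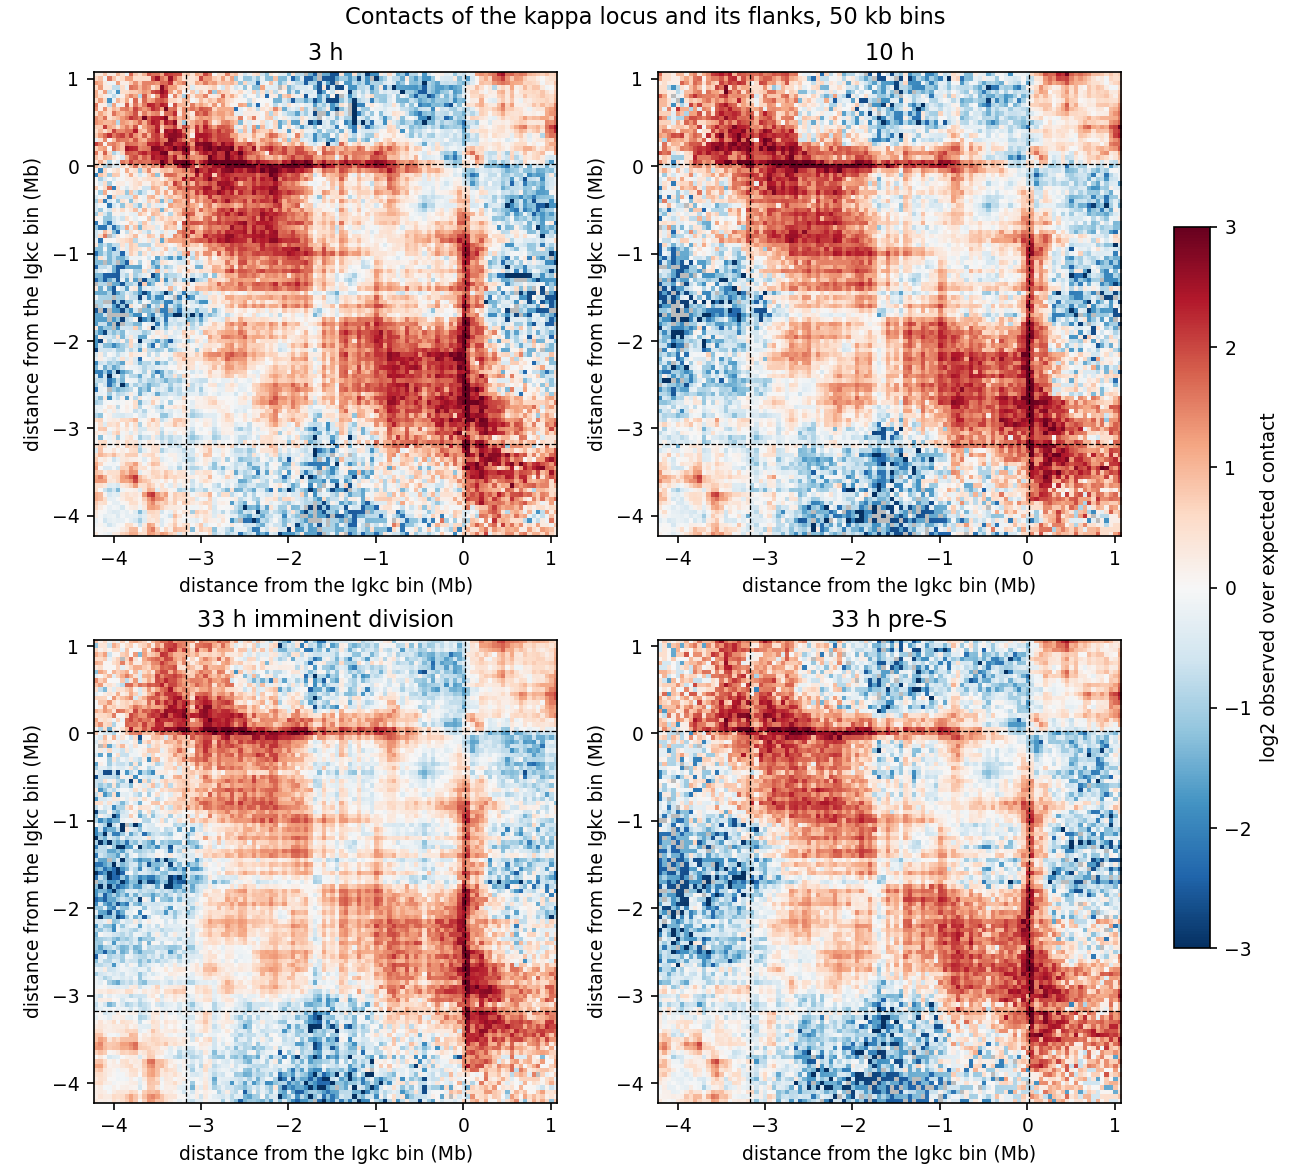
Log2 observed over expected contact for pairs of 50 kb bins of the kappa locus and its flanks in each group (pooled counts of 2 libraries over their pooled expected counts), both axes giving distance from the Igkc bin in Mb. Dashed lines mark the start of the V segments and the end of the Igkc bin, red is contact above the expected and grey a bin pair with no count; the block of red between distal and proximal V segments is paler in the imminent division panel, where its mean was 2.63 against 3.67 at 10 h.

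The V segments were also in contact with each other, and here the groups differed by the test. Mean observed over expected contact among V bins, leaving out adjacent bins, was 2.36 and 2.31 at 3 h, 2.15 and 2.13 at 10 h, against 1.65 and 1.80 at imminent division, and 1.94 and 1.86 in pre-S. The 4 groups did not overlap and ran in the order 3 h, 10 h, pre-S and imminent division. The difference among the groups passed the exact permutation test (p = 0.00952, the smallest it can give, adjusted p = 0.0270). The mean was 2.14 ± 0.010 (SD, n = 2) at 10 h and 1.72 ± 0.11 at imminent division and 1.90 ± 0.054 in pre-S, with geometric means 0.805 and 0.887 times that of 10 h. With adjacent bins included, 0.520% of 45388 overlapping windows of the same size, those around kappa among them, had a higher level. A lower ratio of 10 h to 3 h was found in 1.36% of them, of imminent division to 10 h in 6.34% and of pre-S to 10 h in 19%.

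The parts of the locus are described without a test. Distal with proximal V bins had 4.0 and 3.81 at 3 h, 3.71 and 3.63 at 10 h, then 2.52 and 2.75 at imminent division, and 3.29 and 3.09 in pre-S. The groups did not overlap, and imminent division was lowest. Within the distal part the libraries ranged only from 1.22 to 1.38, with 1.31 and 1.29 at 10 h and 1.24 and 1.38 at imminent division, which overlap. Within the middle part they read 1.98 and 1.94 at 10 h, against 1.65 and 1.75 at imminent division. Within the proximal part they read 1.44 and 1.42 at 10 h, against 1.24 and 1.36 at imminent division. Inside these parts, both imminent division libraries thus lay below both 10 h libraries. Middle with proximal V bins had 2.25 and 2.22 at 3 h, 1.87 and 1.86 at 10 h, against 1.49 and 1.61 at imminent division, and 1.62 and 1.56 in pre-S, so here 10 h already lay below 3 h.

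Single bin pairs were then tested for differential interactions (DIs) by edgeR's quasi-likelihood test, fitted on 1459300 autosomal bin pairs with Benjamini-Hochberg adjustment over all. Of these, 2800 joined a kappa bin with the locus or its flanks. No kappa pair changed between 3 h and 10 h at an adjusted p under 0.05, where 0.000617% of all pairs were called, and 175 passed at an unadjusted p under 0.05, against 5.93% of all pairs. Between 10 h and imminent division 9 kappa pairs strengthened and 28 weakened, 1.32% of the pairs against 2.01% of all pairs, a share not above the background at this scaling and bin size. Weakened pairs made up 1.00% of kappa pairs and 1.32% of all pairs, and strengthened ones 0.321% and 0.691%. The split depends on the scaling: with the interchromosomal coverage of each bin added to the offsets it was 1 strengthened and 235 weakened at kappa, with 8.39% of kappa pairs and 2.16% of all pairs weakened. With TMM factors it was 12 and 75, with 2.68% and 2.58% weakened, and in 100 kb bins 5.82% of kappa pairs and 1.25% of all pairs weakened. When any 1 library of 10 h or imminent division was left out, fewer kappa pairs were called, and fewer of all pairs. The median log2 change over kappa pairs in this contrast was -0.18 without replicate 1 of 10 h and -0.15 without its replicate 2. Without replicate 1 of imminent division it was -0.14, and without its replicate 2 it was -0.25. Pre-S against 10 h gave 1 strengthened and 4 weakened pairs, 0.179% against 0.593%. With bin coverage it was 0 and 43, 1.54% against 0.600%, and so above the background, and with TMM factors 0 and 4, 0.143% against 0.770%. Imminent division against pre-S gave 3 strengthened and 0 weakened, 0.107% against 0.360%. With bin coverage it was 2 and 10, 0.429% against 1.68%, and with TMM factors 2 and 6, 0.286% against 0.482%. Imminent division and pre-S are both set against the same 10 h libraries.

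Most kappa pairs that were lower did not pass singly. The median log2 change from 10 h to imminent division was -0.18 over kappa pairs and 0.03 over all pairs, and from 10 h to pre-S it was -0.14 against -0.01. By distance, pairs among Igkc and V bins up to 0.5 Mb apart had 7 strengthened and 0 weakened pairs and a median of 0.00. The strengthened share was 1.19%, below the 1.5% of all pairs at that distance, whose median was 0.11. From 0.5 to 1 Mb apart 0.828% weakened, below the 2.01% of all pairs there. From 1 to 2 Mb apart they had 0 strengthened and 20 weakened and a median of -0.39. The weakened share was 3.49%, where all pairs at that distance had 1.35% and a median of -0.06, and beyond 2 Mb it was 1.1% against 0.251%. Of 1210 pairs between V bins of different parts, 25 weakened (2.07%) and 0 strengthened (median -0.32). Of 630 within a part, 7 strengthened (1.11%) and 0 weakened. Over all distances 1.32% of all pairs weakened and 0.691% strengthened, shares that are not matched for distance. Pairs within a part are at most 1 Mb apart, and their strengthened share was below the 1.5% of all pairs up to 0.5 Mb. Among all pairs from 0.5 to 1 Mb apart, 1455 of 376046 strengthened.

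The kappa pair with the smallest p joined the bin of Igkv10-95 in the middle part with that of Igkv4-50, Igkv12-49 and Igkv5-48 in the proximal part. Its counts were 27 and 39 at 3 h, 33 and 54 at 10 h, then 31 and 41 at imminent division, and 33 and 26 in pre-S, which after normalization are 48.0, 35.4, 40.3, 50.9, 19.8, 22.3, 38.0 and 35.0. Both imminent division libraries lay below the other 6, and the log2 change from 10 h was -1.12 (SE 0.24, edgeR adjusted p = 0.00199). The bin of Igkv14-100 and Igkv1-99 with that of Igkv12-41 and Igkv12-40 weakened by a log2 change of -1.04 (edgeR adjusted p = 0.00923). Each joins V bins of different parts of the locus.

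Strengthened pairs of V bins joined close neighbours. The distal bin of Igkv17-127 and Igkv14-126 with that of Igkv1-122 and Igkv17-121, 150 kb away, had normalized counts of 98.2 and 102 at 3 h, 99.5 and 102 at 10 h, against 142 and 150 at imminent division, and 125 and 153 in pre-S. Here both 33 h groups were above all earlier libraries, with a log2 change of 0.53 from 10 h to imminent division (edgeR adjusted p = 0.0120). The middle bins of Igkv12-89 and Igkv1-88 strengthened by 0.38 (edgeR adjusted p = 0.0162). The bin of Il12rb2, a cytokine receptor gene of the 5′ flank, strengthened with the V bin of Igkv1-133 by 1.17 (edgeR adjusted p = 0.0158) from low counts of 11 and 15 at 10 h and 63 and 45 at imminent division.

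Of the 63 pairs of the Igkc bin with V bins, 2 weakened between 10 h and imminent division, 3.17% against 1.32% of all pairs, and 0 strengthened, and none was called in the other 3 contrasts. With the bin of Igkv4-51, at the far edge of the proximal part, the counts were 25 and 45 at 3 h, 41 and 40 at 10 h, then 33 and 48 at imminent division, and 26 and 15 in pre-S, or 50.2 and 37.7 at 10 h and 21 and 26.1 at imminent division after normalization. The log2 change was -0.86 (SE 0.24, edgeR adjusted p = 0.0285). With the bin of Igkv4-62, in the middle part, it was -0.89 (edgeR adjusted p = 0.0482). The median change over the Igkc bin's pairs was -0.37 for the 21 middle V bins, -0.18 for the proximal and -0.07 for the distal, and 16 to 17 of 21 in each part were negative.

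Between imminent division and pre-S the 3 called kappa pairs joined V bins of the same part. The median over pairs of Igkc and V bins up to 0.5 Mb apart was 0.04, beside 0.06 over all pairs at that distance. The bin of Igkv9-129 and Igkv9-128 strengthened with that of Igkv9-123 by 0.66 (edgeR adjusted p = 0.0248) and with that of Igkv11-125 and Igkv9-124 by 0.63 (edgeR adjusted p = 0.0282). The middle bin of Igkv4-92 and Igkv4-91 strengthened with that of Igkv1-88 by 0.54 (edgeR adjusted p = 0.0386). In pre-S against 10 h the bin of Igkv12-89 strengthened with that of Igkv13-87 by 0.47 (edgeR adjusted p = 0.0346), while that of Igkv7-33 and Igkv6-32 weakened with Foxi3 by a log2 change of -1.77 (edgeR adjusted p = 0.0278) on counts of 5 to 23.

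**Figure D3:**
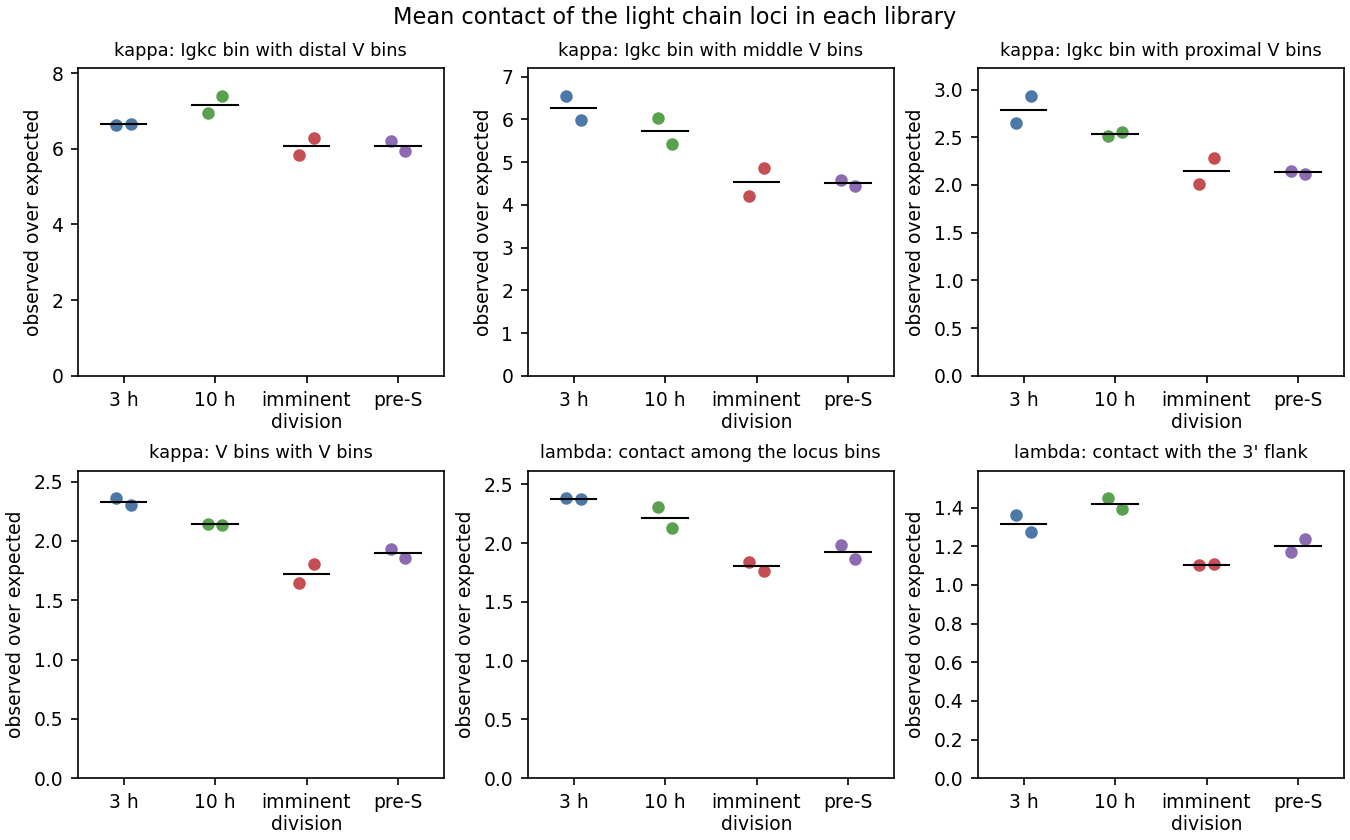
Mean observed over expected contact (vertical axes, starting at 0) of the light chain loci in each library: points are libraries, bars the mean of the 2 libraries of a group, and panels the Igkc bin with each part of the V segments, V bins with V bins, the lambda bins with each other and the lambda bins with their 3′ flank. In each panel all imminent division and pre-S libraries lie below all 10 h libraries.

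The lambda locus is compact and was in contact with itself above the expected for the distance, a ratio that does not divide out bin coverage. Averaged over libraries, its bins had 1.252 to 2.045 times the median interchromosomal coverage of autosomal bins. How much of the level goes with this coverage was not tested. Mean observed over expected contact among the 5 lambda bins was 2.38 and 2.37 at 3 h and 2.30 and 2.13 at 10 h. It was 1.84 and 1.76 at imminent division, and 1.98 and 1.87 in pre-S. The groups did not overlap (exact permutation p = 0.00952, adjusted p = 0.0270), and the imminent division mean of 1.80 ± 0.057 (SD, n = 2) stood against 2.22 ± 0.13 at 10 h, with a ratio of geometric means of 0.814. Of 46508 overlapping windows of 5 bins, those around lambda among them, 3.38% had a higher level and 3.77% had a larger decrease from 10 h. With the 3′ flank, which holds Hira and other genes, contact was 1.36 and 1.27 at 3 h, 1.45 and 1.39 at 10 h, then 1.1 and 1.11 at imminent division, and 1.17 and 1.24 in pre-S. Both 33 h groups lay below both earlier ones, and the groups differed (exact permutation p = 0.00952, adjusted p = 0.0270). With the 5′ flank it was 1.84 to 1.94 before 33 h and 1.58 to 1.62 at 33 h, which did not pass (exact permutation p = 0.0571, adjusted p = 0.0883).

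The insulation score of the lambda bins, the log2 of contact across a bin between the 500 kb on each side relative to the autosomal mean, was above 0 throughout, where a border would read below 0. It was 1.26 and 1.24 at 3 h, 1.27 and 1.34 at 10 h, against 0.980 and 0.997 at imminent division, and 1.06 and 1.01 in pre-S (exact permutation p = 0.00952, adjusted p = 0.0270). The 33 h groups were below the earlier groups without overlap, and the mean was 0.32 lower at imminent division than at 10 h. At the Igkc bin the score was negative in every library, as at a border, and ran from -0.41 and -0.49 at 3 h and -0.42 and -0.34 at 10 h to -0.59 and -0.48 at imminent division and -0.53 and -0.58 in pre-S. These overlapped and did not pass (exact permutation p = 0.152, adjusted p = 0.199). The lowest score in the kappa region was that of the Rpia bin next to Igkc, with a mean of -0.60, and the score at the first bin of the kappa locus did not differ by the test either (exact permutation p = 0.190, adjusted p = 0.231).

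**Figure D4:**
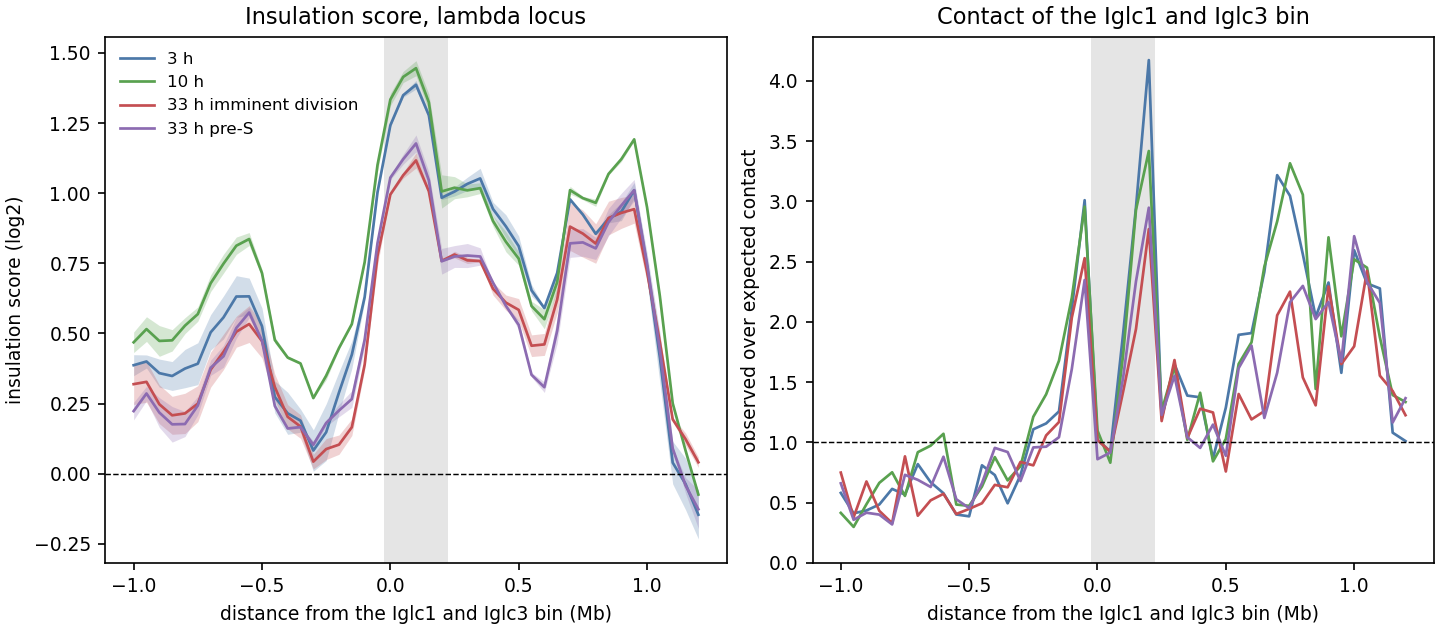
Left, insulation score (log2, lines are group means and bands span the 2 libraries) and right, mean observed over expected contact of the bin of Iglc1 and Iglc3, against distance from that bin in Mb for the lambda locus (shaded) and its flanks. On the left, mean scores over the locus were 0.980 to 1.06 in the imminent division and pre-S libraries, below 1.24 to 1.34 at 3 h and 10 h. On the right the lines do not keep this order at every bin of the locus.

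Of 198 lambda bin pairs, 0 were called between 3 h and 10 h, where 0.000617% of all pairs were. At an unadjusted p under 0.05 by edgeR there were 15, against 5.93% of all pairs. Between 10 h and imminent division 0 strengthened and 4 weakened, 2.02% against 2.01% of all pairs. The median log2 change was -0.28 over lambda pairs and 0.03 over all pairs. Pre-S against 10 h gave 0 strengthened and 1 weakened, 0.505% against 0.593%, but with bin coverage 5.56% against 0.600%, with TMM factors 2.02% against 0.770% and in 100 kb bins 3.17% against 0.694%. Imminent division against pre-S gave 1 strengthened and 0 weakened, 0.505% against 0.360%. The share depends on the scaling. With bin coverage in the offsets 46 lambda pairs weakened between 10 h and imminent division, 23.2% against 2.16% of all pairs, and with TMM factors 10 did, 5.05% against 2.58%, while 0 strengthened in either. In 100 kb bins 15.9% weakened against 1.25%. When any 1 library of 10 h or of either 33 h group was left out, fewer lambda pairs were called in that contrast, and fewer of all pairs. The median log2 change over lambda pairs was then -0.29 to -0.25. Imminent division against pre-S became 0 strengthened and 2 weakened with bin coverage.

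The bin of Iglc1 and Iglc3 took part in 2 of the 4 weakened pairs. With the bin of Lamp3, a lysosomal membrane protein gene of the 5′ flank, its normalized counts were 28.7 and 43.2 at 3 h, 41.9 and 32.2 at 10 h, then 15.2 and 21.7 at imminent division, and 18.3 and 17.3 in pre-S. All 4 of the 33 h libraries were below the earlier ones, and the log2 change from 10 h to imminent division was -0.96 (SE 0.26, edgeR adjusted p = 0.0256). With a bin 800 kb away that holds no annotated gene the change was -1.01 (edgeR adjusted p = 0.0196). The bin of Iglj2 and Iglv3, which holds only the first bases of the Iglc2 gene, weakened by a log2 change of -1.08 with another bin of that flank (edgeR adjusted p = 0.0463), and the bin of Iglv2 by a log2 change of -1.34 with that of Ranbp1 (edgeR adjusted p = 0.0470), from 16 and 16 counts at 10 h and 13 and 10 at imminent division. Among the 10 pairs inside the locus none was called, the lowest adjusted p by edgeR being 0.0743. Of these 10, 2 had an unadjusted p under 0.05, where 227093 of all 1459300 pairs had.

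The pairs called in the contrasts with pre-S joined the bin of Iglc1 and Iglc3 to Hira, a histone chaperone gene next to the locus. One Hira bin weakened with it between 10 h and pre-S by a log2 change of -0.69 (SE 0.18, edgeR adjusted p = 0.0362), with normalized counts of 102 and 108 at 10 h and 62.9 and 67.5 in pre-S. The adjoining Hira bin was stronger at imminent division than in pre-S by 0.46 (edgeR adjusted p = 0.0479). Its normalized counts were 211 and 193 at imminent division and 137 and 157 in pre-S, with no overlap.

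The compartment component, the first principal component of the contact correlation matrix of 100 kb bins, was positive over the whole kappa locus in every library, which places it in the open A compartment. Its mean over the locus was 0.779 and 0.796 at 3 h, 0.822 and 0.835 at 10 h, against 1.02 and 1.06 at imminent division, and 0.943 and 0.97 in pre-S. The groups did not overlap (exact permutation p = 0.00952, adjusted p = 0.0270), with means of 0.828 ± 0.0091 (SD, n = 2) at 10 h, 1.04 ± 0.025 at imminent division and 0.956 ± 0.019 in pre-S. The locus stood above 67.3% of autosomal bins at 10 h and above 73.6% at imminent division. In the limma test over 23791 bins, 31 of 33 kappa bins rose from 10 h to imminent division and 0 fell, where 13.7% of all bins rose and 29.2% were called. From 10 h to pre-S 26 rose and 0 fell, against 10.8% rising and 23.8% called, and from pre-S to imminent division 12 rose and 0 fell, against 8.94% and 17.4%. None was called between 3 h and 10 h, where 5.22% were. The rise was not confined to the locus. From 10 h to imminent division 4 of 10 bins of the 5′ flank rose and 0 fell, by up to 0.36. In the 3′ flank 0 of 10 were called. From 10 h to pre-S 0 bins of either flank were called. Neighbouring bins share one component and are not independent of each other.

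The 100 kb bin of Igkc rose by 0.22 from 10 h to imminent division (limma adjusted p = 0.000303) and by 0.18 to pre-S (limma adjusted p = 0.00157). The largest rise in the locus, 0.29, was that of the middle bin of Igkv10-94 to Igkv4-91 (limma adjusted p = 4.35e-05). All parts of the V segments took part, and changes at imminent division ran from 0.087 to 0.29 over the 33 bins, with a median of 0.22. The lambda locus was already at 1.20 to 1.28 in all 8 libraries and its mean did not differ by the test (exact permutation p = 0.114, adjusted p = 0.162). Of its 3 bins, only that of Iglc1 and Iglc3 rose from 10 h to imminent division, by 0.084 (limma adjusted p = 0.0339), and none was called in the other contrasts.

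**Figure D5:**
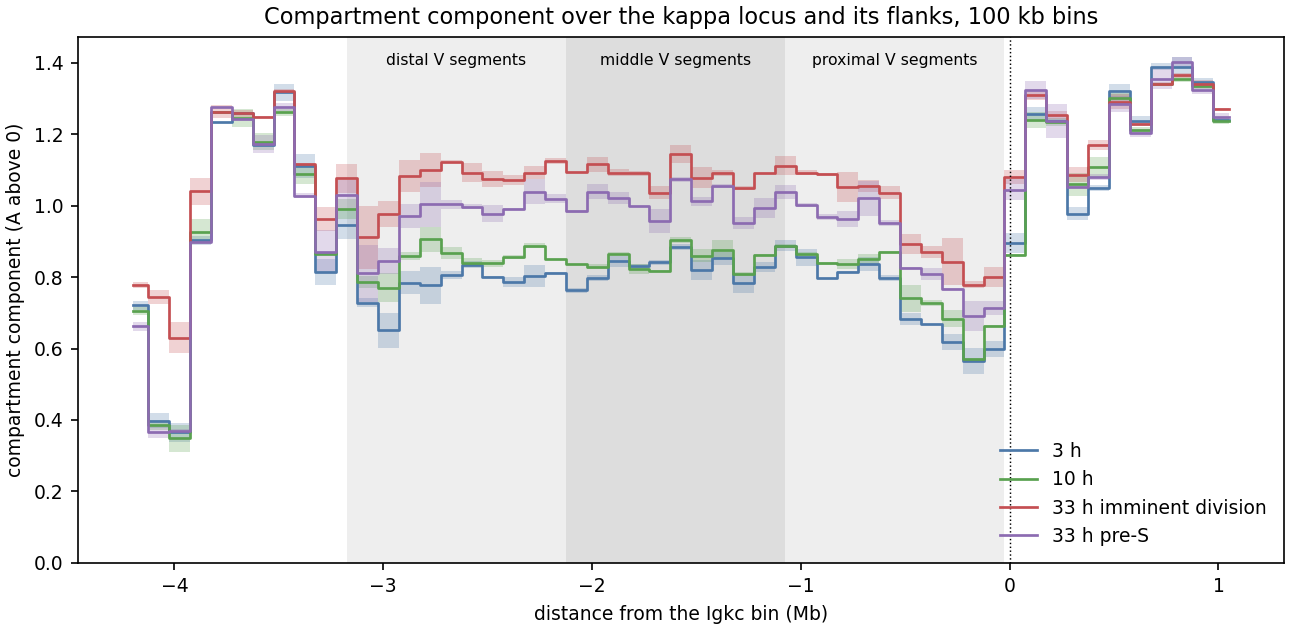
Compartment component of 100 kb bins (vertical axis, A above 0) over the kappa locus and its flanks by distance from the Igkc bin in Mb; lines are group means and bands span the 2 libraries. The imminent division line is highest over the V segments, with a locus mean of 1.04 against 0.828 at 10 h. In the 5′ flank its mean was also above that of 10 h, 1.04 against 0.927, and the lines come together in the 3′ flank.

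The coverage of the kappa V bins by interchromosomal read pairs, relative to their flanks, also differed among groups (exact permutation p = 0.00952, adjusted p = 0.0270). It was 1.01 in both 3 h libraries, 0.991 and 1.01 at 10 h, then 1.01 and 1.04 at imminent division, and 1.12 and 1.09 in pre-S. Pre-S stood apart, by 10.8% over 10 h, while imminent division was 2.74% over 10 h. For lambda the ratio was 0.891 to 0.916 before 33 h and 1.00 to 1.03 at 33 h (exact permutation p = 0.0571, adjusted p = 0.0883). When counts were divided by the coverage of both bins, the change of V with V contact from 10 h to imminent division was -0.59 on the log2 scale, beside -0.31 without, and the groups still differed (exact permutation adjusted p = 0.0405).

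Insulation borders were tested by the ratio of upstream to downstream contact of 100 kb regions (edgeR, fold threshold 1.1). Of 33 kappa regions, the ratio rose in 1 and fell in 0 between 10 h and imminent division, against 17.8% of 23251 regions called, a share below that of all regions with no test of the difference. That region holds Igkv1-122 and Igkv17-121, and its log2 ratio went from -0.47 to -0.11, a change of 0.36 towards equal contact on both sides (edgeR adjusted p = 5.12e-05). Between pre-S and imminent division the log2 ratio of the region of Igkv12-89 and Igkv1-88 likewise went from -0.40 to -0.15, a change of 0.26 (edgeR adjusted p = 0.0428), where 5.48% were called. The region of Igkc and Rpia was not called in any contrast, its log2 ratio staying between 0.58 and 0.62 in all groups, and no lambda region was called. In pre-S against 10 h and in 10 h against 3 h no region of either locus was called, against 4.90% and 0.335%.

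The bins of the constant genes were also tested for interactivity, the sum of their contacts above the distance curve. Neither the Igkc bin, the bin of Iglc1 and Iglc3 nor the bin of the Iglc2 start was called by edgeR in any of the 4 contrasts, where 0.874%, 50.5%, 33.0% and 22.6% of 12474 bins were. For Igkc the normalized sum was 1734 and 1838 at 3 h, 1721 and 1792 at 10 h, against 1716 and 1764 at imminent division, and 1788 and 1740 in pre-S. The groups overlapped throughout, and the log2 change from 10 h to imminent division was -0.014 (SE 0.041, edgeR adjusted p = 0.790). The nearest to a call was the bin of Iglc1 and Iglc3 between pre-S and imminent division, with a log2 change of 0.13 (SE 0.050, edgeR adjusted p = 0.0546). The bin of the Iglc2 coding exon was not among the bins tested.

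In the 5′ flank of kappa, 9 of 12 tested bins rose in interactivity from 10 h to imminent division and 0 fell, and in its 3′ flank 4 of 13 rose and 0 fell, where 50.5% of all bins were called. Those of the 5′ flank included vomeronasal receptor genes such as Vmn1r32 (0.38, edgeR adjusted p = 3.13e-08) and Vmn1r38 (0.44, edgeR adjusted p = 3.06e-06), together with Mad2l1 (0.28, edgeR adjusted p = 1.26e-06), a gene of the mitotic spindle checkpoint, and Gng12 (0.29, edgeR adjusted p = 6.86e-06), a G protein subunit gene. Vmn1r33 to Vmn1r35 rose in the compartment component too, by 0.36 (limma adjusted p = 2.05e-05). In the 3′ flank the bin of Cd8a, a T cell coreceptor gene, and Rmnd5a rose by 0.22 (edgeR adjusted p = 7.29e-05), and Kdm3a, a histone demethylase gene, by 0.15 (edgeR adjusted p = 0.00169). Beside lambda, 7 of 12 tested bins of the 5′ flank rose and 2 fell in the same contrast (median 0.13), and 0 of 12 in the 3′ flank rose and 5 fell, 41.7% called against the same 50.5%. From 3 h to 10 h, 4 bins of the 5′ flank and 6 of the 3′ flank had risen, where 0.874% of all bins were called. Between 10 h and pre-S 0 bins of the lambda 3′ flank rose and 10 of 12 fell, 83.3% called against 33.0% of all bins. In its 5′ flank 0 rose and 3 fell, 25% called. From 10 h to imminent division Rtn4r, a neuronal receptor gene of the 3′ flank, fell by 0.43 (edgeR adjusted p = 2.98e-09), and the bin of Klhl24 and Yeats2 in the 5′ flank fell by 0.41 in its border ratio, from 1.44 to 1.03 on the log2 scale (edgeR adjusted p = 1.54e-06). Roughly as many bins rose as fell among all bins in this contrast, 25.3% and 25.2%.

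Genes of light chain assembly and B cell antigen receptor expression were described from a list of 33, of which 32 were tested for interactivity, all in the A compartment in each group. None was called from 3 h to 10 h. From 10 h to imminent division 6 genes rose and 17 fell, 71.9% of the genes against 50.5% of all bins called. The median was -0.10 beside -0.00 over all bins. Genes that share a bin are counted separately in these shares of the list. The recombinase genes Rag1 and Rag2, which share a bin, rose by 0.13 (SE 0.051, edgeR adjusted p = 0.0321), as did Xrcc4 of DNA end joining by 0.20 and Jchain, which links antibody units, by 0.17. In the compartment component these same genes fell, as part of 4 rising and 10 falling of 33, 42.4% against 29.2% of all bins called. The ligase gene Lig4 fell by 0.24 (SE 0.042, edgeR adjusted p = 7.33e-06) and the surrogate light chain genes Igll1 and Vpreb1, in 1 bin, fell by 0.29 (SE 0.045, edgeR adjusted p = 8.98e-07). The receptor gene Cd79a fell by 0.23. The transcription factor gene Spib, known to act on light chain enhancers, fell by 0.24, and Irf8, of the same kind, fell by 0.18. From 10 h to pre-S 4 rose and 8 fell, 37.5% against 33.0% of all bins. From pre-S to imminent division Rela rose and Ebf1, Igll1 and Vpreb1 fell, 12.5% against 22.6%. Expression was not measured in these libraries.

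Kappa and lambda lie on different chromosomes, and their bins met more often than interchromosomal bins did on average. The ratio to the mean autosomal interchromosomal pair was 6.74 and 7.44 at 3 h, 7.31 and 6.50 at 10 h, then 6.84 and 8.24 at imminent division, and 8.07 and 6.52 in pre-S. It rests on 48 to 155 read pairs over 330 bin pairs, and the groups overlapped (exact permutation p = 0.819, adjusted p = 0.819). With the heavy chain locus, the other antibody locus, kappa had a ratio of 2.74 and 3.08 at 3 h, 2.92 and 2.80 at 10 h, against 2.29 and 2.70 at imminent division, and 2.44 and 2.60 in pre-S (exact permutation p = 0.238, adjusted p = 0.253). Both loci are rich in A compartment contact, which such a ratio does not remove, and bin coverage was not divided out either. Over the 17 measures 6 passed after adjustment, 3 of them at kappa and 3 at lambda.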

How the data were processed

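The study's authors aligned each in situ Hi-C library (MboI digestion) to mm10 with diffHic (bowtie2 after trimming by cutadapt), left out dangling ends, marked duplicates, and deposited raw counts of read pairs per pair of 50 kb bins, not normalized, 1 matrix for each of the 8 libraries. The files carry no bin coordinates, so bins were rebuilt from the midpoints of MboI fragments of GRCm38, in the order of chromosomes 1 to 19, X and Y. The members and gene lists were chosen with earlier results of these data known. Genes were placed with GENCODE M21 and sequences were read from the GRCm38 assembly of RefSeq.

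Bins with over 10% undetermined sequence, or with interchromosomal coverage more than 4-fold from the median, were left out (756 of 48088 autosomal bins). DIs were tested on counts with edgeR 4.0.16 (R 4.3.3): bin pairs with a summed count of at least 10 and an abundance over 4-fold the interchromosomal background, no diagonal, loess offsets fitted separately up to and beyond 1.5 Mb, quasi-likelihood F-test with 1 fit for all groups, and Benjamini-Hochberg adjustment over all pairs at an FDR of 5%. Interactivity used the same test on summed cis counts of at least 200, the border test edgeR's glmTreat over 1 Mb per side, and the compartment test limma 3.58.1. The 17 locus measures were compared by an exact permutation test of the F ratio over the 4 groups (scipy 1.17.1), on the log2 scale for ratios. Expected counts are the mean over autosomal bin pairs of equal distance in that library. The named V bins are the 3 highest and 3 lowest in contact with Igkc, and the named DIs up to 3 per direction, contrast and locus with the smallest p, with those of constant gene bins added. Low counts limit single bin pairs most. Replicate numbers were checked for pairing: deviations of same-numbered libraries correlated between -0.10 and 0.025, so they were not treated as pairs. The interchromosomal coverage of replicates differed by a chi-square per bin of 1.13 to 6.32, where sampling noise alone gives 1, so no library was taken as a copy of another. Alternatives were TMM factors, bin coverage, DESeq2 1.42.0, other filters, bin sizes, windows and expected counts, and leaving out each library. The scripts were tested on simulated data.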

Additional observations from a re-analysis of the deposited data

How the results depend on the processing

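The direction of the contact and compartment measures between 10 h and imminent division held under every setting run except for kappa with lambda, whose log2 change of 0.12 became -0.20 with bin coverage divided out and -0.0098 without imminent division replicate 2. How many bin pairs were called depended strongly on scaling and filter, and the cause was not tested. With TMM factors 87 kappa pairs were called between 10 h and imminent division and 8 between pre-S and imminent division, and at lambda 10 and, for pre-S against 10 h, 4. With bin coverage in the offsets the counts were 236, 43 for pre-S against 10 h and 12 for imminent division against pre-S at kappa (8.43%, 1.54% and 0.429%), and 46, 11 and 2 at lambda (23.2%, 5.56% and 1.01%), where 3.78%, 0.600% and 1.68% of all pairs were called. Testing more pairs, at 2-fold over background, left 4, 0 and 0 at kappa and 0 in each contrast at lambda, and without an abundance filter 11, 0 and 1 at kappa and 1, 0 and 0 at lambda, while the share of all pairs called between 10 h and imminent division also dropped, to 0.158% and 0.362%. In 100 kb bins 78 and 6 (imminent division against 10 h and pre-S) were called at kappa (6.88% and 0.529%) and 10, 2 and 0 at lambda (15.9%, 3.17% and 0%), where all pairs had 2.28%, 0.694% and 0.373%. DESeq2 called 1, 0 and 0 of 2800 pairs at kappa and 4, 1 and 0 of 198 pairs at lambda. Of all pairs it called 0.509%, 0.131% and 0.0133%. Leaving out a library in turn gave 2 to 47, 0 to 6 and 0 to 6 at kappa and 0 to 4, 0 to 1 and 0 to 1 at lambda, with 0 between 3 h and 10 h throughout.

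With the replicate number as a block, lambda counts became 2, 0 and 0. The compartment test then called 2 of 33 kappa bins between 3 h and 10 h, where 5.22% of all bins were called without the block. The 6 measures that had passed missed the threshold (exact permutation adjusted p = 0.118), since 24 arrangements allow no exact permutation p below 0.0417. Their values stayed -0.31 (V with V), 0.21 (kappa component), 0.039 (V coverage), -0.30 (lambda bins), -0.36 (lambda 3′ flank) and -0.32 (lambda insulation). The block moved the kappa calls from 37 to 29 between 10 h and imminent division (1.04% against 1.72% of all pairs) and changed no other call by over 1.5 times.

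Among the measures, Igkc with the middle V bins passed with bin coverage (-0.52) and with the neighbouring bins of Igkc included (-0.23), and lambda with its 5′ flank with bin coverage (-0.57) and as a ratio of sums (-0.12), a setting chosen after seeing the data, under which the lambda bins among themselves did not (-0.20). Lambda insulation did not pass with a 300 kb window (-0.22). Without single libraries fewer arrangements remain and most adjusted p-values were above 0.05, while V with V contact ranged from -0.38 to -0.25, the kappa component from 0.19 to 0.23, V coverage from 0.023 to 0.055, the lambda bins from -0.35 to -0.24, their 3′ flank from -0.39 to -0.33, their insulation from -0.35 to -0.28 and kappa with lambda from -0.0098 to 0.26. With no fold threshold the border test called 2, 11, 2 and 7 of 33 kappa regions for 10 h against 3 h, imminent division and pre-S against 10 h, and imminent division against pre-S, where 5.6%, 37.5%, 19.7% and 21.5% of all regions were called, and 2 of 3 lambda regions at imminent division against 10 h. With 500 kb per side it called 0 at kappa between pre-S and imminent division, as it did (0 to 1) without any single library of those groups. In 250 kb bins the compartment test called 4, 14 and 13 of 14 kappa bins for 10 h against 3 h and imminent division and pre-S against 10 h, where 13.8%, 50.6% and 59.3% of all bins were called, and both lambda bins (2) for pre-S. With quantile normalization it called 6 of 33 kappa bins between pre-S and imminent division (19.9% of all bins) and 0 lambda bins, and without single libraries 3 to 15 and, for lambda at imminent division against 10 h, 0 to 2. In interactivity, 4 tests of constant gene bins gave a stronger result with all cis bin pairs and 8 the same, and 2 gave a stronger result with TMM factors. Among them, the bin of Iglc1 and Iglc3 passed between pre-S and imminent division in both settings (0.27 and 0.14). Low counts behind single bin pairs, 2 libraries a group and bins of 50 kb limit what can be detected.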
